A study of Mus musculus with 60 samples.

Results

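The genes that recycle, make and take up inositol comprised 10 of the 18088 genes in the expression table, chosen by symbol: the phosphatase genes Impa1, Impa2, Inpp1 and Bpnt1, the synthesis gene Isyna1, the uptake genes Slc5a3 and Slc5a11, and the lipid genes Cdipt, Cds1 and Cds2. Lithium is known to block the enzymes of the 4 phosphatase genes directly. The other 6 genes belong to the same cycle and are not direct lithium targets. RNA was sequenced from prefrontal cortex of C57BL/6J mice aged 25 days, heterozygous for the K228E allele of Tbr1 (HT) or wild type (WT). Tbr1 is a transcription factor of cortical excitatory neurons. Pups had received lithium, fluoxetine or vehicle in their mother's milk from day 3 to day 24. The groups were HT lithium, HT fluoxetine, HT vehicle, WT lithium, WT fluoxetine and WT vehicle, with 5 females and 5 males in each, 60 libraries in all. Dosing through the mother means that littermates share it. Neither litters nor batches are given in the labels, and the p-values therefore rest on the spread among these libraries alone, which may be technical.

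Neurons signal through phosphatidylinositol lipids, which phospholipase C cuts into diacylglycerol and inositol trisphosphate. The trisphosphate is stripped of its phosphates step by step. INPP1 removes a phosphate from inositol bisphosphates, and the monophosphatases IMPA1 and IMPA2 release free myo-inositol. Lithium blocks these steps without competing with the substrate, which is the basis of the inositol depletion idea of its action in mood disorder. BPNT1, of the same phosphatase family, clears phosphoadenosine phosphate, a by-product of sulphation. Free inositol is also made from glucose phosphate through ISYNA1, whose product again needs the monophosphatases, and is imported with sodium by SMIT1 (Slc5a3) and SMIT2 (Slc5a11). The lipid is rebuilt when CDS1 or CDS2 turns phosphatidic acid into CDP-diacylglycerol, to which CDIPT, the phosphatidylinositol synthase, joins inositol. The table measures RNA, not enzyme activity or inositol.

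The levels of Isyna1, Cds1 and Cds2 in WT mice and of Slc5a3 in HT mice differed between lithium and fluoxetine. Promoter windows are shown for Isyna1, Slc5a3 and Cds1, but not for Cds2. They come from the RefSeq promoter table (GRCm38.p6), which held 7 of the 10 genes, and are given 5′ to 3′ on the plus strand up to the base before the gene's annotated start. The windows are chr8:70594231-70594372 for Isyna1, chr16:92058072-92058321 for Slc5a3 and chr5:101764880-101765129 for Cds1. Capitals mark matches, on either strand, to 5 motifs: the GC box GGGCGG, the CCAAT box, the NFAT core motif GGAAA, the cyclic AMP response element TGACGTCA and its shorter form TGACG.
Isyna1: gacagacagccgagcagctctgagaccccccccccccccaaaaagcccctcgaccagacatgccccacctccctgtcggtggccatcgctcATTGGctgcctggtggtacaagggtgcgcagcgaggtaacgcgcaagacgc
Slc5a3: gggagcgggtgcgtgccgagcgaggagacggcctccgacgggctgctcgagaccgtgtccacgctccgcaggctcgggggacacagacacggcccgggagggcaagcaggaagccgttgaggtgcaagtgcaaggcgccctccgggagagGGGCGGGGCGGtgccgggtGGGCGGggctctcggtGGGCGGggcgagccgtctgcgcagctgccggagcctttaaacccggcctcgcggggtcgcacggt
Cds1: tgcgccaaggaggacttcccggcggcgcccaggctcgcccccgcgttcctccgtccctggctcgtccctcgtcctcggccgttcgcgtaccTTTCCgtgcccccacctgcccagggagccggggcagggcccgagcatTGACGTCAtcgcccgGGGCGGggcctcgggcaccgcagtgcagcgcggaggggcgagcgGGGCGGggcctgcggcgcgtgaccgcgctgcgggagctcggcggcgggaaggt
The Isyna1 window of 142 bases held 1 CCAAT match. Such a match was found in 18.92% of all promoters over the first 142 bases of their sequence. Those windows leave out the bases nearest the RefSeq start. The Slc5a3 window of 250 bases held 4 GC box matches, of which the first 2 overlap, and the Cds1 window of the same length held 2. A GC box match was present in 32.74% of all windows of 250 bases. Cds1 also had 1 full cyclic AMP response element, present in 1.546% of windows, which contains both of its TGACG matches. Its GGAAA match is of a kind found in 55.57% of windows. A match is a string of letters and does not show that a factor binds.

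Summed over the 18088 genes, the libraries held 23930164 to 36515331 reads (median 28721151). All 8 genes listed for cortical excitatory neurons were measured, and so were all 7 listed for the olfactory bulb, a tissue next to the dissected region, whose summed level ranged from 96.6 to 23854 between libraries. On the second principal component, which held 9.458% of the variance, the 10 vehicle males lay at 17.76 to 47.89 and the other 50 libraries at −31.98 to 12.5. Vehicle and a shift of these 10 libraries cannot be told apart in males, so the comparisons with vehicle are also given by sex. The RNA counts do not separate the K228E allele from the wild-type allele. Tbr1 itself averaged 4310 ± 655 in HT lithium females and 2970 ± 928 in WT lithium females (normalised read count, SD, n = 5).

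All 10 genes were detected in every library and passed the filter on low values. Per kilobase of exon, the lipid genes were the highest: the median over libraries was 1917 normalised reads per kilobase for Cds2, 1443 for Cdipt and 790.1 for Cds1. Next came Bpnt1 at 697, Isyna1 at 364, Impa1 at 315, Inpp1 at 129, Slc5a3 at 66.0 and Impa2 at 26.7. Slc5a11 was the lowest at 5.20, and its median of 14.3 normalised reads leaves it with the widest spread. Each gene was above the next in that order in all 60 libraries, except Cds1 above Bpnt1 in 56 and Isyna1 above Impa1 in 47. These last 2 pairs therefore overlap, while the others do not change places.

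The genes also differed in how steady they were. The highest library was 1.20 times the lowest for Bpnt1, 1.34 times for Cds1, 1.39 times for Inpp1 and 1.43 times for Impa1. It was 1.80 times for Isyna1, 1.82 times for Slc5a3 and 1.95 times for Impa2, and 10.2 times for Slc5a11. The median coefficient of variation within a group was 3.86% for Bpnt1, 4.19% for Inpp1 and 5.83% for Isyna1, against 12.6% for Impa2 and 41.2% for Slc5a11. Impa2 and Slc5a11 could thus show only large differences.

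**Figure D1:**
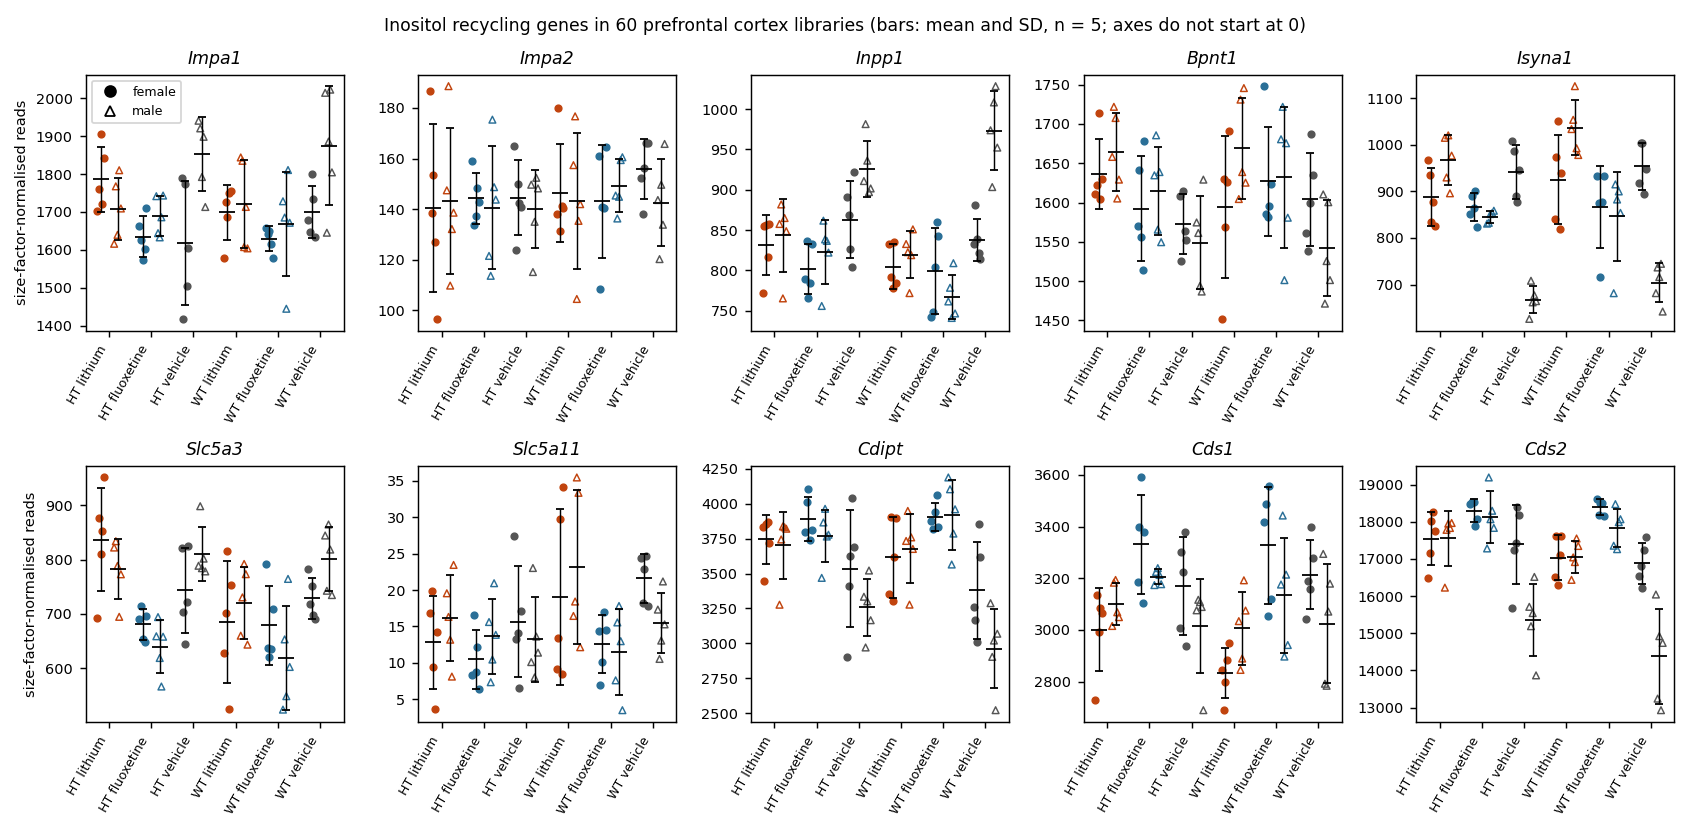
Normalised read count of each of the 10 genes (vertical axis, not starting at 0) in every library, by genotype and treatment, with circles for females, triangles for males, and the mean ± SD of each group of 5. Isyna1 in vehicle males lies at 626 to 744, below nearly all the other libraries, and Slc5a3 in HT mice is higher under lithium than under fluoxetine.

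The first question was whether lithium changed the genes of its own target enzymes. With the sexes averaged, Inpp1 of the 4 phosphatase genes was lower under lithium in both genotypes, and Bpnt1 was slightly higher in HT mice. The monophosphatase genes Impa1 and Impa2 did not pass the test in either genotype. In females alone none of the 4 was called. Inpp1 averaged 832 under lithium and 863 under vehicle in HT females, and 805 and 838 in WT females. The vehicle males had 897 to 1028 normalised reads of Inpp1, and the other 50 libraries 741 to 922. Inpp1 (chromosome 1, 52785427 to 52817688, GRCm38) stood at 765 to 882 normalised reads (median 856) in HT lithium mice and at 804 to 981 (median 899) in HT vehicle mice. The WT lithium mice had 772 to 851 (median 821) and the WT vehicle mice 814 to 1028 (median 893). The ranges overlapped in both genotypes, with the highest values in vehicle mice. Inpp1 fell by 0.093 on the log2 scale in HT mice (SE 0.0311, adjusted p = 0.0231) and by 0.15 in WT mice (SE 0.0311, adjusted p = 0.000105). The lower call in HT mice was lost without HT lithium female 1, HT lithium male 3, HT vehicle female 5 or HT vehicle male 2, with log2 changes of −0.083 to −0.076 and adjusted p of 0.0552 to 0.0721.

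Impa1 and Impa2 encode the monophosphatases that give the inositol depletion idea its target. Impa1 (chromosome 3, 10311956 to 10331439) had 1616 to 1905 normalised reads (median 1739.9) in HT lithium mice and 1417 to 1941 (median 1781) in HT vehicle mice. In WT mice it had 1579 to 1844 (median 1719.6) under lithium and 1635 to 2023 (median 1768) under vehicle. The ranges overlapped almost entirely, and the log2 changes were 0.015 in HT mice (adjusted p = 0.820) and −0.061 in WT mice (adjusted p = 0.201). Impa2 (chromosome 18, 67289186 to 67322472) lay at 96.7 to 189 (median 138) in HT lithium mice and at 115 to 165 (median 145) in HT vehicle mice. Its WT values were 105 to 180.1 (median 141) under lithium and 120.3 to 166 (median 151) under vehicle. Its log2 changes, −0.025 in HT and −0.052 in WT, had an SE of 0.0941, so a change of that size was not detectable here. The 95% interval of the Impa1 change ran from −0.14 to 0.017 in WT mice.

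Bpnt1 (chromosome 1, 185332149 to 185357777) had 1605 to 1722 normalised reads (median 1629.6) in HT lithium mice, against 1487 to 1629 (median 1562) in HT vehicle mice, with some overlap. It rose by 0.080 on the log2 scale there (SE 0.0272, adjusted p = 0.0253). Without HT lithium female 3, HT lithium male 2 or HT vehicle male 3 the change was 0.072 to 0.074, with an adjusted p of 0.0505 to 0.0584. In WT mice the log2 change of 0.052 did not pass (adjusted p = 0.118). It passed without WT lithium female 1 (0.068, adjusted p = 0.0320).

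Among the genes of inositol synthesis and lipid rebuilding, Isyna1, Cdipt and Cds2 rose under lithium in both genotypes with the sexes averaged. Each was called in males, whose vehicle libraries stand apart, and none in females. Cds2 averaged 17539 under lithium and 17390 under vehicle in HT females, and 17036 and 16877 in WT females. Cdipt averaged 3744 and 3534 in HT females, and 3615 and 3381 in WT females. Isyna1 averaged 888 and 942 in HT females, and 925 and 954 in WT females. Over both sexes, Isyna1, which encodes inositol phosphate synthase, rose by 0.22 on the log2 scale in HT mice (SE 0.0463, adjusted p = 0.000279). It rose by 0.25 in WT mice (SE 0.0463, adjusted p = 2.17e-05). Cdipt rose by 0.14 in HT mice (SE 0.0473, adjusted p = 0.0287) and by 0.21 in WT mice (SE 0.0473, adjusted p = 0.000442). Cds2, the more abundant CDP-diacylglycerol synthase gene, rose by 0.10 in HT mice (adjusted p = 0.0138) and by 0.13 in WT mice (SE 0.0319, adjusted p = 0.000822), but under quantile normalisation its WT change was −0.0017. Cds1 fell in WT mice by 0.094 (SE 0.0355, adjusted p = 0.0293) and in HT mice its change was −0.018 (adjusted p = 0.759). The transporter genes did not pass: Slc5a3 changed by 0.059 in HT mice (adjusted p = 0.552) and by −0.13 in WT mice (adjusted p = 0.0940), and Slc5a11 by −0.023 in HT (adjusted p = 0.965) and 0.047 in WT (adjusted p = 0.905). The HT call of Cdipt was lost without HT lithium male 3, HT lithium male 5, HT vehicle female 1 or HT vehicle male 2 (0.10 to 0.13, adjusted p 0.0501 to 0.0983). The WT call of Cds1 was lost without WT lithium female 2, WT lithium male 2 or 3, WT vehicle female 4 or WT vehicle male 1 or 5 (−0.086 to −0.078, adjusted p 0.0516 to 0.0695). Slc5a3 in WT mice passed without WT lithium female 3 (−0.16, adjusted p = 0.0325).

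In all, 5 of the 10 genes were called under lithium in HT mice, where 23.2% of all genes were called. Of these 4 rose and 1 fell, beside 12.6% and 10.6% of all genes. In WT mice 5 were called, where 42.7% of all genes were called. Of these 3 rose and 2 fell, beside 21.8% and 20.9% of all genes. The WT share of the 10 genes is near that background. The median size of their log2 change, 0.0695 in HT and 0.112 in WT, was below the 0.120 and 0.165 of all tested genes. In bulk tissue, fewer cells of a type and less RNA per cell cannot be told apart.

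The sexes differed, above all for Isyna1. HT lithium males had 896, 929.7, 977, 1015 and 1020.1 normalised reads of Isyna1, and HT vehicle males had 626, 662, 664, 677 and 708. WT lithium males had 978, 992, 1034, 1054 and 1126, and WT vehicle males had 642, 681, 716, 737 and 744. Every lithium male was thus above every vehicle male. Groups did not overlap for 23.6% of all genes in HT males and for 30.5% in WT males. Isyna1 was higher by 0.53 on the log2 scale in HT (SE 0.0655, adjusted p = 3.86e-09) and by 0.56 in WT (SE 0.0655, adjusted p = 8.92e-10).

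In females the Isyna1 values overlapped. HT lithium females had 826, 835, 876, 935 and 968 normalised reads, and HT vehicle females had 877, 891, 946, 988 and 1009. WT lithium females had 819, 841, 940.1, 975 and 1051, and WT vehicle females had 894, 917, 949, 1004 and 1004. The log2 changes were negative, at −0.086 in HT (adjusted p = 0.584) and −0.048 in WT (adjusted p = 0.737). The difference between the sexes, female minus male, was −0.62 in HT (SE 0.0926, adjusted p = 1.11e-06) and −0.61 in WT (SE 0.0926, adjusted p = 1.64e-06).

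Several genes were called in males. In HT males 5 genes changed, with 36.9% of all genes called, and in WT males also 5, with 48.2% of all genes called. Beside Isyna1 these were Inpp1, lower by 0.13 in HT (adjusted p = 0.0126) and 0.25 in WT (adjusted p = 6.24e-06), and Bpnt1, Cdipt and Cds2, higher by 0.10 to 0.32. In HT males the call of Inpp1 was lost without lithium male 3 or vehicle male 2 (adjusted p 0.0512 to 0.0800). Bpnt1 there was lost without lithium male 2 or 3 or vehicle male 3 or 4 (adjusted p 0.0694 to 0.0831), and Cdipt without lithium male 3, 4 or 5 or vehicle male 2 or 5 (adjusted p 0.0569 to 0.0910). Impa1 fell past the threshold in HT males without vehicle male 5 (−0.14, adjusted p = 0.0474) and in WT males without lithium male 1 or 2 or vehicle male 2 (−0.17 to −0.15, adjusted p 0.0109 to 0.0357).

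In females limma called none of the 10 genes in either genotype, where 0.0169% of all genes were called in HT and 0.00562% in WT. In each genotype 1 gene had an unadjusted p below 0.05, and edgeR and DESeq2 called 0 of the 10 in both. In HT females that gene was Impa1. Its values were 1704, 1719.8, 1759.9, 1843 and 1905 normalised reads under lithium and 1417, 1505, 1604, 1773 and 1790.0 under vehicle, a log2 change of 0.15 (SE 0.0549, adjusted p = 0.525). In WT females it was Cds1, with 2690.2, 2798, 2845, 2885 and 2950.0 under lithium and 3042, 3159, 3189, 3279.7 and 3397 under vehicle. The Cds1 groups did not overlap, which was so for 1.33% of all genes, and the log2 change was −0.18 (SE 0.0502, adjusted p = 0.199).

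A test of the difference itself between the sexes called 3 genes in each genotype by limma. Of all genes 26.4% were called in HT and 27.8% in WT, so both counts are near their background. Isyna1 and Cds2 were among the 3 genes in both. For Cds2 the difference, female minus male, was −0.18 in HT (adjusted p = 0.0302) and −0.24 in WT (adjusted p = 0.00340). Impa1 differed in HT by 0.26 (adjusted p = 0.00798) and Inpp1 in WT by 0.19 (adjusted p = 0.0181). The HT call of Cds2 was lost without HT lithium female 1, HT lithium male 5, HT vehicle female 4 or 5 or HT vehicle male 5 (−0.17 to −0.14, adjusted p 0.0506 to 0.0954). In WT the count was 6 by edgeR, by DESeq2 and with bulb covariates, where Bpnt1, Cdipt and Cds1 were added. By limma Cdipt joined without WT lithium male 3, WT vehicle female 3 or WT vehicle male 1 (−0.26, adjusted p 0.0371 to 0.0382). Cds1 joined without WT lithium female 5, WT lithium male 2 or 3, WT vehicle female 1 or WT vehicle male 1 or 5 (−0.21 to −0.19, adjusted p 0.0240 to 0.0467), and Bpnt1 without WT lithium female 5 (−0.15, adjusted p = 0.0396). For fluoxetine the sexes differed in 1 gene in HT, with 23.7% of all genes called, and in 3 genes in WT, with 26.8% of all genes called. The WT count is near its background and the HT count below it. Isyna1 was called in both, at −0.46 in HT (adjusted p = 0.000159) and −0.40 in WT (adjusted p = 0.000708). Cds2 joined it in HT without HT fluoxetine male 1, HT vehicle female 1 or HT vehicle male 4 (−0.20 to −0.18, adjusted p 0.0135 to 0.0366). The HT count was 2 by edgeR and DESeq2 and 3 with bulb covariates. Slc5a3 joined in WT without WT fluoxetine male 4 (0.36, adjusted p = 0.0272).

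The 10 vehicle males stood apart for several of these genes. Their Isyna1 values of 626 to 744 (median 679) compare with 681 to 1126 (median 900.2) in the other 50 libraries, and their Inpp1 values of 897 to 1028 with 741 to 922. Cds2 lay at 12932 to 16515 (median 15056) in vehicle males and at 15688 to 19189 (median 17767) in the others. Cdipt lay at 2523 to 3521 (median 3118) against 2906 to 4187 (median 3789.6). Impa1 lay at 1645 to 2023 (median 1892) in vehicle males and at 1417 to 1905 (median 1686) in the others. Slc5a3 lay at 735 to 898 (median 795) against 524 to 951 (median 700). By their medians Isyna1, Cds2 and Cdipt were thus low, and Inpp1, Impa1 and Slc5a3 high, in the libraries that stand apart. The part of that shift in the male results, under lithium or fluoxetine, was not tested.

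**Figure D2:**
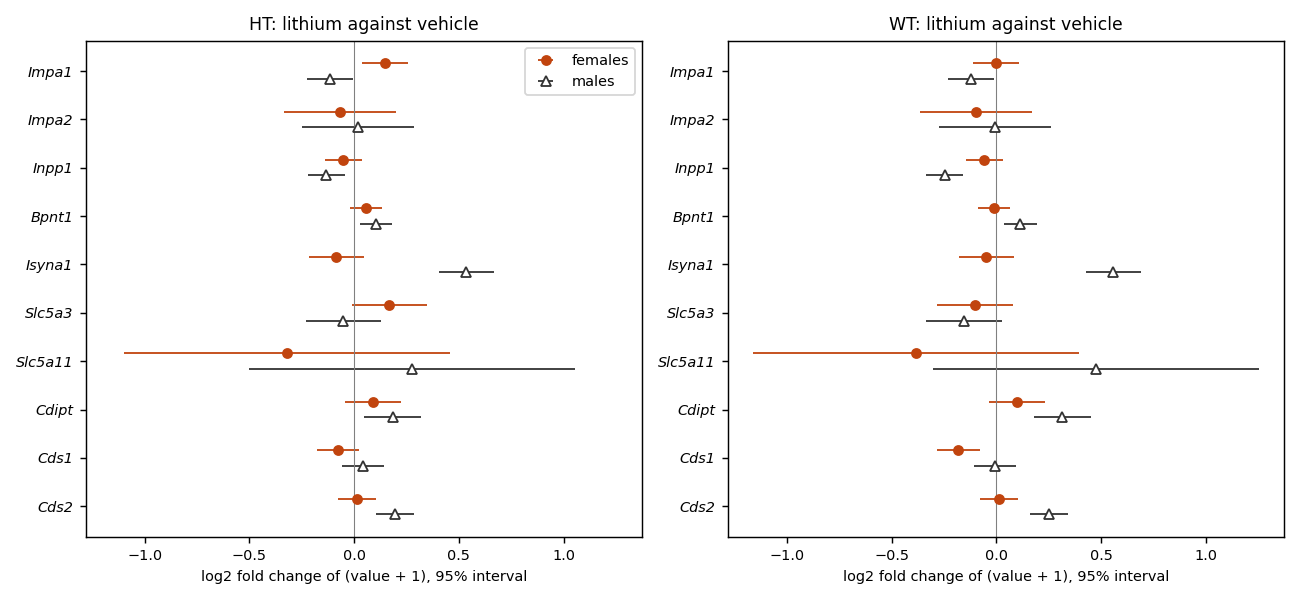
Log2 fold change of lithium against vehicle with its 95% interval for the 10 genes, females and males apart, HT in the left panel and WT in the right. Isyna1 is at 0.53 and 0.56 in males and at −0.086 and −0.048 in females.

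Fluoxetine, an inhibitor of serotonin uptake, was the other drug. In HT mice 4 of the 10 genes were called, where 40.8% of all genes were called. Of these 2 rose and 2 fell, beside 20.2% and 20.6% of all genes. In WT mice 6 were called, where 63.2% of all genes were called. Of these 2 rose and 4 fell, beside 31.7% and 31.5% of all genes. Both counts are near their background. Cdipt rose by 0.18 in HT mice (SE 0.0473, adjusted p = 0.00235) and by 0.31 in WT mice (adjusted p = 2.79e-07). Cds2 rose by 0.16 in HT (adjusted p = 0.000101) and by 0.22 in WT (adjusted p = 1.06e-07), but was at −0.032 in WT under quantile normalisation. Inpp1 fell by 0.14 in HT (adjusted p = 0.000452) and by 0.21 in WT (adjusted p = 2.28e-07).

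The transporter gene Slc5a3 (chromosome 16, 92058322 to 92087473), which takes up inositol as an osmolyte, fell under fluoxetine. It had 567 to 716 normalised reads (median 659) in HT fluoxetine mice and 644 to 898 (median 786) in HT vehicle mice. WT fluoxetine mice had 524 to 792 (median 637) and WT vehicle mice 692 to 865 (median 747). Most fluoxetine libraries lay under the vehicle median, and the log2 change was −0.23 in HT (SE 0.0637, adjusted p = 0.00317) and −0.24 in WT (SE 0.0637, adjusted p = 0.000874). By sex, Slc5a3 changed by −0.12 in HT females (adjusted p = 0.391), −0.34 in HT males (adjusted p = 0.00165), −0.11 in WT females (adjusted p = 0.351) and −0.38 in WT males (adjusted p = 0.000311). In WT mice Impa1 (−0.11, adjusted p = 0.00938) and Slc5a11 (−0.66, SE 0.274, adjusted p = 0.0333) also fell. Slc5a11 lost its call without WT fluoxetine female 2 or 3, WT fluoxetine male 1 or 5 or WT vehicle male 4 (−0.63 to −0.49, adjusted p 0.0516 to 0.106).

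Some calls under fluoxetine appeared only when a library was left out. In HT mice these were Isyna1 (0.11, adjusted p = 0.0501) and Cds1 (0.081, adjusted p = 0.0617), neither of which passed with all libraries. Isyna1 passed without HT fluoxetine female 5, HT vehicle female 1 or 2 or HT vehicle male 2 (0.12, adjusted p 0.0392 to 0.0428). Cds1 passed without HT fluoxetine female 1 or 4 or HT vehicle female 2 or 4 (0.089 to 0.094, adjusted p 0.0336 to 0.0493). Isyna1 passed without WT fluoxetine male 1 in WT mice (0.097, adjusted p = 0.0461), as did Bpnt1 without WT fluoxetine male 3 (0.065, adjusted p = 0.0322). In WT females 2 genes changed, with 39.8% of all genes called. These were Cdipt (0.21, adjusted p = 0.0110) and Cds2 (0.12, adjusted p = 0.0249), and Cds2 was at −0.13 under quantile normalisation. The first call was lost without WT vehicle female 3 (0.17, adjusted p = 0.0593) and the second without WT vehicle female 1 or 3 (0.11 to 0.12, adjusted p 0.0542 to 0.0776). In HT females limma called 0 of the 10 genes and 0% of all genes, with 2 of the 10 at an unadjusted p below 0.05 and 0 called by edgeR or DESeq2. Of all genes 1027 were called there without HT vehicle female 4, and 403 by DESeq2 with all libraries.

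In males 6 of the 10 genes were called under fluoxetine in each genotype, with 41.4% of all genes called in HT and 58% in WT. They were Isyna1, Cdipt and Cds2, which rose, and Impa1, Inpp1 and Slc5a3, which fell. Isyna1 had 831, 832, 851, 853 and 858 normalised reads in HT fluoxetine males and 626, 662, 664, 677 and 708 in HT vehicle males. WT fluoxetine males had 681, 854, 882, 899.8 and 915, and WT vehicle males had 642, 681, 716, 737 and 744. The HT groups did not overlap, as for 33.3% of all genes, and 1 WT fluoxetine male lay within the vehicle range. The log2 change of Isyna1 was 0.34 in HT males (SE 0.0655, adjusted p = 2.69e-05) and 0.26 in WT males (SE 0.0655, adjusted p = 0.000701). In females it was −0.12 in HT (adjusted p = 0.247) and −0.14 in WT (adjusted p = 0.0756). It passed as lower in WT females without WT fluoxetine female 5 (−0.17, adjusted p = 0.0458) or WT vehicle female 4 (−0.17, adjusted p = 0.0480).

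Cdipt rose by 0.21 in HT males (adjusted p = 0.00932) and by 0.41 in WT males (adjusted p = 1.09e-06), and its change in HT females was 0.15 (adjusted p = 0.198). Cds2 rose by 0.24 in HT males (adjusted p = 1.85e-05) and by 0.31 in WT males (adjusted p = 6.36e-08), and its change in HT females was 0.075 (adjusted p = 0.285). Inpp1 fell by 0.17 in HT males (adjusted p = 0.00143) and by 0.34 in WT males (adjusted p = 5.43e-09). In females Inpp1 was at −0.10 in HT (adjusted p = 0.182) and −0.070 in WT (adjusted p = 0.197). Impa1 fell by 0.13 in HT males (adjusted p = 0.0478) and by 0.17 in WT males (adjusted p = 0.00771), and was at 0.020 in HT females (adjusted p = 0.844) and −0.060 in WT females (adjusted p = 0.391). The HT male call of Impa1 was lost without HT fluoxetine male 2, 3 or 4 or HT vehicle male 1, 2 or 4 (−0.13 to −0.12, adjusted p 0.0725 to 0.114), and the WT male call without WT fluoxetine male 3 (−0.12, adjusted p = 0.0627). Bpnt1 was gained in WT males without WT fluoxetine male 3, WT vehicle male 1 or WT vehicle male 4 (0.095 to 0.11, adjusted p 0.0146 to 0.0487).

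Lithium set directly against fluoxetine takes its difference from no vehicle library, although vehicle libraries enter the estimate of the spread. It gave calls for 1 of the 10 genes in HT mice and 3 in WT mice. With only the compared groups in the fit the HT count was 3, with Isyna1 (adjusted p = 0.0462) and Cds1 (adjusted p = 0.0439) added. In HT mice Slc5a3 was higher under lithium, with 4.41% of all genes called and 2.32% called higher. HT lithium females had 693, 811, 852, 876 and 951 normalised reads of Slc5a3, and HT fluoxetine females had 649, 654, 691, 695 and 716. HT lithium males had 695, 773, 788, 822 and 834, and HT fluoxetine males had 567, 619, 658, 659 and 694. The male groups did not overlap, as for 3.46% of all genes, and in females 1 lithium library lay within the fluoxetine range. The log2 difference was 0.29 (fold 1.22, SE 0.0637, adjusted p = 0.00378), with 0.29 in each sex taken alone. It passed without each of the 20 libraries in turn (0.27 to 0.32) and with olfactory bulb covariates (0.29, adjusted p = 0.00260).

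Slc5a3 shares 159 exonic bases on the same strand with Mrps6, a mitochondrial ribosomal protein gene. Mrps6 was also higher under lithium than under fluoxetine in HT mice (0.23, SE 0.0502, adjusted p = 0.00339). How reads of the shared bases were divided is not given in the sources used here, so part of either difference may belong to the other gene. In WT mice Slc5a3 had 526 to 815 normalised reads (median 716) under lithium and 524 to 792 (median 637) under fluoxetine. These ranges overlapped almost fully, and the log2 difference was 0.11 (SE 0.0637, adjusted p = 0.187). Whether HT and WT differ in lithium against fluoxetine was not tested.

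In WT mice Isyna1 (chromosome 8, 70594373 to 70597290) was higher and Cds1 and Cds2 lower under lithium than under fluoxetine, with 18.8% of all genes called, 10.5% higher and 8.35% lower. WT lithium females had 819, 841, 940.1, 975 and 1051 normalised reads of Isyna1, and WT fluoxetine females had 717, 874, 878, 932 and 933. WT lithium males had 978, 992, 1034, 1054 and 1126, and WT fluoxetine males had 681, 854, 882, 899.8 and 915. The male groups did not overlap, as for 7.22% of all genes, while the female ones did. The log2 difference was 0.20 (SE 0.0463, adjusted p = 0.00344), and it passed without each of the 20 libraries in turn (0.16 to 0.22). In HT mice Isyna1 differed by 0.11 (SE 0.0463, adjusted p = 0.140), with 896 to 1020.1 in lithium males and 831 to 858 in fluoxetine males.

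Cds1 (chromosome 5, 101765130 to 101823858) was lower by 0.14 in WT mice (SE 0.0355, adjusted p = 0.00473). WT lithium females had 2690.2, 2798, 2845, 2885 and 2950.0 normalised reads, and WT fluoxetine females had 3055, 3120.4, 3419, 3487 and 3556. WT lithium males had 2845, 2889, 3034, 3075 and 3192, and WT fluoxetine males had 2897, 2942, 3176, 3214 and 3443. All lithium females lay below all fluoxetine females, a separation seen for 6.44% of all genes, and the male groups overlapped. In HT mice Cds1 had 2727 to 3193 (median 3066) under lithium and 3105 to 3589.9 (median 3219) under fluoxetine, a log2 difference of −0.099 (SE 0.0355, adjusted p = 0.0907).

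Cds2 (chromosome 2, 132263148 to 132312050) had 16306 to 17622 normalised reads (median 17077) in WT lithium mice and 17261 to 18614 (median 18174) in WT fluoxetine mice. It was lower by 0.087 on the log2 scale (SE 0.0319, adjusted p = 0.0465), and at 0.030 under quantile normalisation. This call was lost without any 1 of 15 of the 20 libraries (−0.091 to −0.080, adjusted p 0.0506 to 0.104). It passed without WT lithium female 2 or 5, WT lithium male 4 or WT fluoxetine male 1 or 3. Slc5a11, at 8.47 to 35.5 (median 17.4) under lithium and 3.49 to 17.8 (median 13.7) under fluoxetine, differed by 0.70 (SE 0.274, adjusted p = 0.0618), and passed without WT lithium female 4, WT lithium male 5 or WT fluoxetine male 3 (0.80 to 0.81, adjusted p 0.0358 to 0.0476).

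Olfactory bulb and choroid plexus genes moved with this comparison. All 7 of the bulb list were higher under lithium than under fluoxetine in WT mice (median log2 difference 3.25), and 0 of 7 passed in HT mice (median 1.69). In WT mice the summed bulb level was 1268 to 15813 in lithium females and 244 to 2058 in fluoxetine females. For males it was 2602 to 9684 under lithium and 219 to 2381 under fluoxetine. Of the choroid plexus list, 3 of 6 measured genes were higher in WT (median 1.09) and 1 of 6 in HT (median 0.82). With bulb covariates in the fit the WT differences were 0.18 for Isyna1 (adjusted p = 0.0393), −0.10 for Cds1 (adjusted p = 0.140) and −0.028 for Cds2 (adjusted p = 0.641). With striatum and choroid plexus covariates they were 0.085, −0.065 and −0.013, none of which passed, and Slc5a3 in HT mice was at 0.29 (adjusted p = 0.0157).

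By sex, limma called Cds1 lower in WT females (−0.23, SE 0.0502, adjusted p = 0.0113), with 3.43% of all genes called. It called Isyna1 higher in WT males (0.30, SE 0.0655, adjusted p = 0.0164), with 0.917% of all genes called. The Cds1 call was lost without WT fluoxetine female 4 (−0.21, adjusted p = 0.0529), and the Isyna1 call without WT fluoxetine male 1 (0.22, adjusted p = 0.114) or WT lithium male 3 (0.27, adjusted p = 0.0569). In HT females 0 of the 10 genes and 0.478% of all genes were called, and in HT males 0 of the 10 and 0.371%. At an unadjusted p below 0.05 there were 3 genes in HT females and 2 in HT males, with 0 by edgeR and DESeq2 in both.

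**Figure D3:**
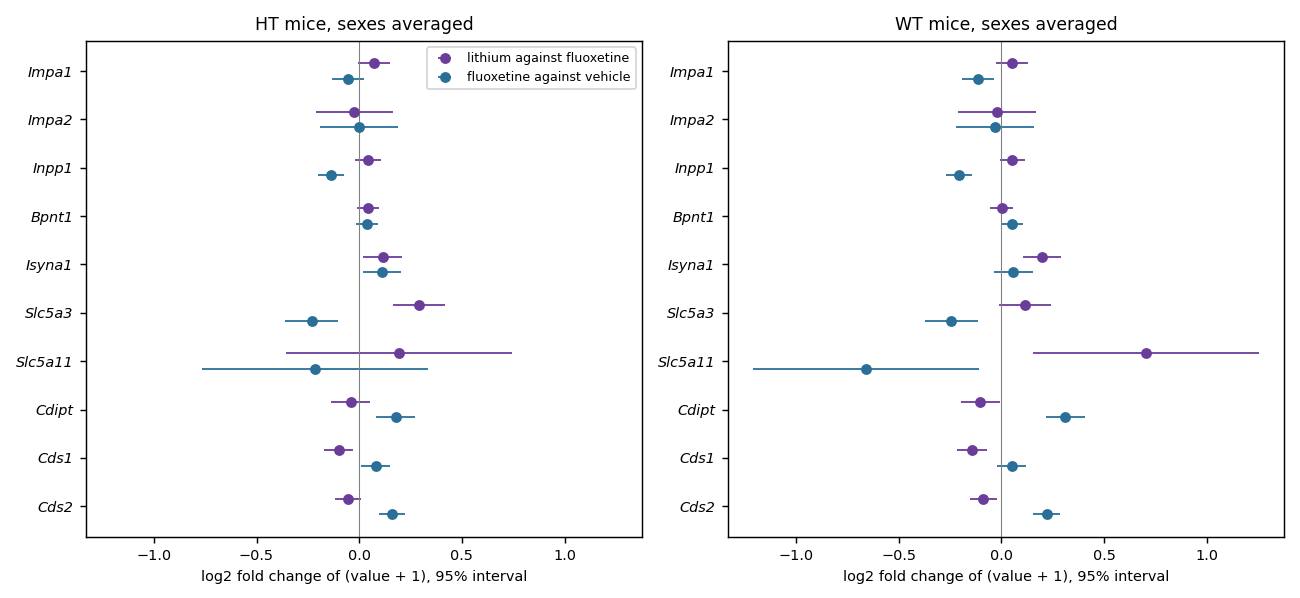
Log2 difference of lithium against fluoxetine and of fluoxetine against vehicle with 95% intervals for the 10 genes, sexes averaged, HT in the left panel and WT in the right. Slc5a3 in HT mice is at 0.29 for lithium against fluoxetine and −0.23 for fluoxetine against vehicle, and Isyna1 in WT mice is at 0.20 and 0.059.

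The Tbr1 mutation was compared under each treatment. Limma called 0 of the 10 genes in HT against WT mice under lithium, fluoxetine or vehicle, with 0.00562%, 0.0112% and 0.0337% of all genes called. An unadjusted p below 0.05 was seen for 1, 0 and 2 of the 10 genes, and edgeR and DESeq2 called 0 under each treatment. Under lithium that gene was Slc5a3, with 693 to 951 normalised reads (median 816) in HT mice and 526 to 815 (median 716) in WT mice. Its log2 difference was 0.21 (95% interval 0.081 to 0.34, adjusted p = 0.414). Under vehicle the 2 genes were Cdipt (0.10, adjusted p = 0.129) and Cds2 (0.070, adjusted p = 0.121). Both passed without HT vehicle female 1 (Cdipt 0.14, adjusted p = 0.0172, and Cds2 0.088, adjusted p = 0.0246), and Cds2 passed without WT vehicle male 1 (0.090, adjusted p = 0.0383). Without HT vehicle female 1, however, 6275 of all genes were called, and without WT vehicle male 1 3688 were, in place of 6 with all libraries. The count of all genes also reached 3030 without HT vehicle male 2 and 3123 without WT vehicle female 4, and DESeq2 called 805. The vehicle groups also differed in marker levels. On the log2 scale the bulb list averaged 8.53 in HT and 10.15 in WT vehicle females, and 8.50 and 9.87 in males. The excitatory neuron list averaged 11.67 and 11.34 in females, and 11.95 and 11.21 in males. The part of this in the Cdipt and Cds2 differences was not tested.

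A test of whether HT and WT mice differed in their change under a drug gave no call. For lithium, limma called 0 of the 10 genes and 0% of all genes, with 1 unadjusted p below 0.05 and 0 by edgeR and DESeq2. The gene was Slc5a3, whose change was greater in HT by 0.19 (adjusted p = 0.812). For fluoxetine it called 0 of the 10 genes and 0% of all genes, with 0 unadjusted p below 0.05 and 0 by edgeR and DESeq2. Calls of Bpnt1 in HT alone and of Cds1 in WT alone under lithium are therefore not shown to differ between genotypes.

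Other genes of the cycle were followed in 7 lists with 89 genes, of which 84 were tested. Under lithium 23 rose and 11 fell in HT mice (median log2 change 0.062), and 29 rose and 12 fell in WT mice (median 0.085), while the median of all genes was −0.0042 and −0.0028. Of all genes 12.6% rose and 10.6% fell in HT mice, and 21.8% rose and 20.9% fell in WT mice. By sex the counts under lithium were 0 in females of both genotypes, 30 up and 15 down in HT males (36.9% of all genes called), and 34 up and 14 down in WT males (48.2% of all genes called). In HT against WT mice none of the 84 passed under any of the 3 treatments.

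Of the phosphoinositide kinases and lipid transfer proteins, 9 of 17 rose and 2 fell in HT mice, and 9 rose and 1 fell in WT mice. The lists were not tested against each other. The transfer protein genes Pitpnm1 (0.20 in HT, adjusted p = 8.56e-06; 0.25 in WT, adjusted p = 1.34e-07) and Pitpnm2 (0.29 in HT, adjusted p = 1.83e-05; 0.41 in WT, adjusted p = 1.78e-08) rose in both. Pi4k2b, which encodes a phosphatidylinositol kinase, fell by 0.31 in HT and by 0.43 in WT. Of the phospholipase C genes 4 of 14 rose and 1 fell in WT mice, with Plcd3 at 0.27 in each genotype and Plcb4 at −0.20 in WT. Of the diacylglycerol and phosphatidate list 3 of 13 rose and 3 fell in WT mice. Both lists are near the 21.8% of all genes that rose in WT, and the diacylglycerol list near the 20.9% that fell. Of that list Dgkb, a diacylglycerol kinase gene, fell by 0.26 in HT (adjusted p = 2.65e-07) and by 0.22 in WT (adjusted p = 1.64e-06).

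Among inositol trisphosphate receptors and the kinases and phosphatases of inositol phosphates, 10 of 28 rose and 4 fell in WT mice. Itpk1, an inositol phosphate kinase gene, rose by 0.13 in HT and by 0.24 in WT, and Ipmk, of the inositol polyphosphate multikinase, fell by 0.14 in HT (adjusted p = 0.00125) and by 0.20 in WT (adjusted p = 2.64e-06). Genes listed for other lithium-sensitive, sulphate or sugar phosphate enzymes moved both ways. Impad1, whose product resembles BPNT1 and works in the Golgi, fell by 0.14 in HT and by 0.19 in WT (adjusted p = 3.13e-05), and Pgm2 fell by 0.30 in HT and by 0.31 in WT. Pgm1 (0.15) and Gsk3a (0.25), the gene of a glycogen synthase kinase that lithium blocks, rose in WT mice. Gsk3b, of its partner kinase, was at −0.067 in HT (adjusted p = 0.350) and −0.0040 in WT (adjusted p = 0.957). Slc2a13, which encodes a proton-coupled inositol transporter and was the only one of 4 listed for transport and catabolism to be tested, was at 0.23 in WT (adjusted p = 0.128). Nfat5, the osmotic regulator known to control Slc5a3, fell by 0.11 in HT (adjusted p = 0.0357) and by 0.17 in WT (adjusted p = 0.000487), and Akr1b3, for the sorbitol-making aldose reductase, rose by 0.11 in HT and by 0.12 in WT.

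Lithium against fluoxetine moved 2 of the 84 genes up and 2 down in HT mice, and 11 up and 14 down in WT mice. Of all genes 4.41% were called in HT and 18.8% in WT, and the HT count is near that background. All 4 genes of HT mice passed in the same direction in WT mice. Plce1, a phospholipase C gene, was higher by 0.58 in HT (adjusted p = 0.0312) and by 0.90 in WT (adjusted p = 0.000431). Itpkb, of an inositol trisphosphate kinase, was higher by 0.21 in HT and by 0.25 in WT. Plch2 was lower by 0.24 in HT (adjusted p = 9.62e-05) and by 0.22 in WT, and Dgkb was lower by 0.17 in each. The 2 comparisons share no library, but bulb genes differed in the same direction in both.

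Cdipt and Cds2 were higher in libraries with more RNA of excitatory neuron genes. Over the 50 libraries other than vehicle males, Cdipt correlated with the mean of 8 excitatory neuron genes at Pearson r = 0.901 (Spearman rho 0.760), and over the 10 vehicle males at 0.916 (rho 0.903). With the bulb list its r was −0.742 and −0.913. Cds2 had an r of 0.829 and 0.706 with the neuron list, and of −0.782 and −0.638 with the bulb list, and Cdipt and Cds2 correlated with each other at 0.776 and 0.852. These are descriptions over libraries that share dissection, depth and scaling, and the neuron list includes Tbr1. Under lithium 0 of the 8 neuron genes passed in HT mice (median log2 change 0.18) and 6 rose in WT mice (median 0.48), and 0 of the 7 bulb genes passed in either. Under fluoxetine all 7 bulb genes fell in HT mice (median −2.42) and in WT mice (median −4.43).

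With bulb covariates in the fit, lithium against vehicle gave 0.11 for Cdipt and 0.088 for Cds2 in HT mice, and 0.086 (adjusted p = 0.00653) and 0.073 (adjusted p = 0.0179) in WT mice, with Isyna1 at 0.30 and Inpp1 at −0.13 in WT. Under fluoxetine in WT mice Cdipt was then at 0.073 (adjusted p = 0.0898) and Cds2 at 0.10. Other genes correlated with these or other lists. Isyna1 had an r of 0.627 and 0.644 with the choroid plexus list over the same 50 and 10 libraries. With the bulb list its r was 0.448 and 0.702, and with the neuron list −0.421 and −0.695. Impa2 had 0.708 and 0.606 with oligodendrocyte genes. Slc5a11 had 0.544 and 0.574 with the bulb list. Cds1 had −0.506 (rho −0.2) and −0.356 (rho −0.236) with the striatum list. With the choroid plexus list Cds1 had −0.49 (rho −0.485) and −0.195 (rho −0.139). The summed striatum level had a median of 12354 and a highest value of 35962 in WT lithium females. It had 12265.5 and 33742 in WT lithium males, 12588 and 32840 in HT lithium females, and 12437.5 and 26940 in HT vehicle males. The part of these libraries in the r of Cds1 was not tested.

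**Figure D4:**
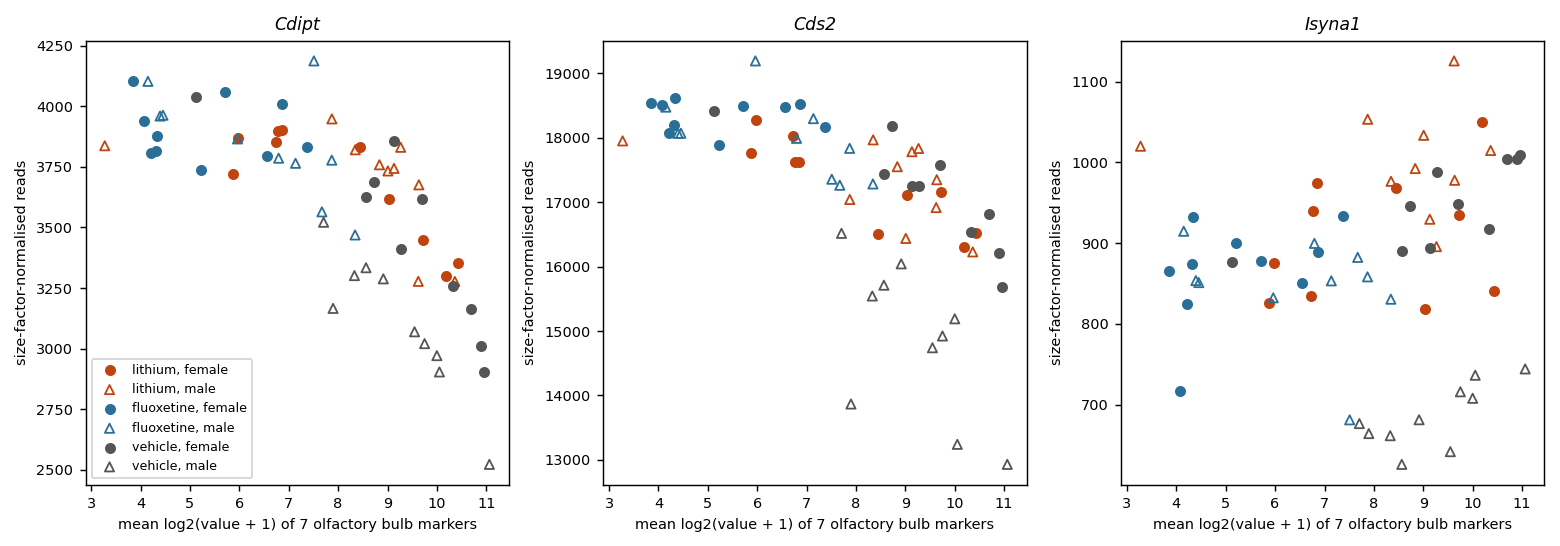
Normalised read count of Cdipt, Cds2 and Isyna1 in each library against the mean log2(value + 1) of the 7 olfactory bulb genes, by treatment and sex. Cdipt and Cds2 are lower where the bulb genes are higher, and vehicle males have Isyna1 at 626 to 744. WT fluoxetine male 1 (681) and WT fluoxetine female 3 (717) also lie in that Isyna1 range.

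The genes most like each of the 10 were found by Pearson correlation of log2 values over the 60 libraries, and the nearest is given with its r over the 50 libraries other than vehicle males and over the 10 vehicle males. For Cdipt this was Tmem151a (0.952 and 0.974) and for Cds2 Dgcr2 (0.887 and 0.971). Impa2 was nearest to Adamts4 (0.756 and 0.637), and Slc5a3 to Uhrf2 (0.697 and 0.511). Impa1 was nearest to Atp5c1, of the mitochondrial ATP synthase (0.645 and 0.624). Cds1 was nearest to Dusp14 (0.665 and 0.561) and Slc5a11 to Tgif2 (0.642 and 0.579). Bpnt1 was nearest to Hspa8, of a heat shock cognate chaperone, at 0.555 over the 50 libraries and −0.018 over vehicle males. Isyna1 was nearest to Lamc3 (0.657 and 0.548) and Inpp1 to Itgav (0.519 and 0.948). Over all 60 libraries, which pool both clusters, the r of these last 2 pairs was 0.858 and 0.825. Shared function or control does not follow from such likeness.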

How the data were processed

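The deposited table holds, for each gene and library, a signal that is the authors' read number divided by a size factor of the library. The submitters' processing notes name Salmon 0.11.2, R 3.6.0, DESeq2 1.19.11 and GRCm38, and the labels a stranded mRNA kit. Each value was a whole multiple of its library's step (100% at a tolerance of 1e-06), which gave the reads per gene and library. No replicate pair agreed within sampling noise. A value of 1 was added, and limma 3.58.1 (R 4.3.3) was run on the log2 scale with a mean-variance trend, 1 mean for each of 12 groups, all 60 libraries and two-sided tests. It replaced a count test because the values are normalised. Adding 1 makes changes of low genes look smaller. The 17781 genes that reached 10 in 5 or more libraries were tested, with Benjamini-Hochberg adjustment over all of them and a threshold of 0.05. Coordinates and exon lengths come from the GENCODE annotation of GRCm38. Alternatives were edgeR 4.0.16 and DESeq2 1.42.0 (both on recovered reads), other pseudocounts, filters, scalings, weights, covariates and left-out libraries. Pathway genes named were up to 4 in each direction with the smallest p in a list. The 10 genes, the lists and the alternatives were chosen with earlier results of these data known. The test was checked on simulated counts, with planted changes larger than most of those called here and no shift of a group or tissue mixture. That check therefore does not show how the test handles small changes or the shift of the vehicle males.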

Additional observations from a re-analysis of the deposited data

Results flagged for a closer look

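In 10 of the 120 sets of 5 libraries (10 genes in 12 groups), 1 library stood far from the rest, where chance gives about 1 in 20. The Impa2 value was 180.103 in WT lithium female 2, with the nearest other at 141.401. Inpp1 was at 765.39 in HT lithium male 3 (nearest 848.719). Bpnt1 was at 1714.55 in HT lithium female 3 (nearest 1630.05) and at 1748.12 in WT fluoxetine female 1 (nearest 1624.15). Isyna1 was at 717.134 in WT fluoxetine female 3 (nearest 874.305) and at 681.325 in WT fluoxetine male 1 (nearest 853.741). Slc5a3 was at 898.313 in HT vehicle male 2 (nearest 801.88). In HT lithium male 1, Cdipt was at 3276.99 (nearest 3743.4) and Cds2 at 16227 (nearest 17781.2). Cds1 was at 2689.38 in HT vehicle male 5 (nearest 3075.86).

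The change under a drug differed between the sexes in 10 of 40 tests, where 23.7% to 27.8% of all genes were called, a count near that background. The difference is given as female minus male on the log2 scale with limma's adjusted p. Under lithium in HT mice the difference was 0.264 for Impa1 (adjusted p = 0.00798), −0.620 for Isyna1 (adjusted p = 1.11e-06) and −0.180 for Cds2 (adjusted p = 0.0302). Under lithium in WT mice it was 0.188 for Inpp1 (adjusted p = 0.0181), −0.606 for Isyna1 (adjusted p = 1.64e-06) and −0.238 for Cds2 (adjusted p = 0.00340). Under fluoxetine it was −0.461 for Isyna1 in HT mice (adjusted p = 0.000159), and in WT mice 0.271 for Inpp1 (adjusted p = 0.000661), −0.402 for Isyna1 (adjusted p = 0.000708) and −0.190 for Cds2 (adjusted p = 0.0204). The HT call of Cds2 under lithium is lost without any 1 of the 5 libraries named for it above, and the WT call of Cds2 under fluoxetine without WT vehicle male 2 or 4 (−0.16 to −0.15, adjusted p 0.0560 to 0.0605). Each of these tests uses the vehicle males, which lie apart from all other libraries, and the drug and that shift cannot be told apart in males.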

How the results depend on the processing

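Counts of the 10 genes called moved with some settings. With only the compared groups in the fit, lithium against vehicle in HT gave 2 and lithium against fluoxetine in HT 3. Library quality weights gave 2 for HT against WT under vehicle and 2 for lithium against fluoxetine in HT. Bulb covariates gave 3 for fluoxetine against vehicle in WT, 1 for lithium against fluoxetine in WT and 0 for fluoxetine against vehicle in WT females. Striatum and choroid plexus covariates gave 0 for lithium against fluoxetine in WT and 0 for fluoxetine against vehicle in WT females. Quantile normalisation turned Cds2 round, to −0.00175 for lithium and −0.0320 for fluoxetine against vehicle in WT, 0.0303 for lithium against fluoxetine in WT and −0.128 for fluoxetine against vehicle in WT females (adjusted p = 0.0115). Bulb covariates turned Cdipt (−0.0498) and Cds2 (−0.00712) round in that last comparison. For the difference between the sexes under a drug, edgeR, DESeq2 and bulb covariates each gave 6 in place of 3 for lithium in WT, and 2, 2 and 3 in place of 1 for fluoxetine in HT. The cause was not tested.

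With each library left out in turn, the count ran from 4 to 6 for lithium in WT, 3 to 5 for lithium in HT (3 without HT lithium male 3 or HT vehicle male 2), 5 to 7 for fluoxetine in WT and 4 to 6 for fluoxetine in HT. It ran from 0 to 2 for HT against WT under vehicle, 2 to 4 for lithium against fluoxetine in WT, 1 to 1 in HT and 0 to 3 for fluoxetine in WT females. It stayed at 0 for HT against WT under lithium or fluoxetine, for lithium against vehicle in females of each genotype, for fluoxetine in HT females, and for both interactions with genotype. For lithium against fluoxetine in WT females it was 0 to 1 (0 without WT fluoxetine female 4). For the 60 calls of single genes, other settings kept the call 743 times, lost it 38 times and turned it round 6 times.

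Replicate numbers did not pair the libraries: deviations of same-numbered libraries correlated at 0.00608 on average (−0.565 to 0.617), against −0.00127 for the others. A replicate block gave 5 in place of 6 for fluoxetine in HT males and left the counts of the other comparisons as they were. Leaving out the vehicle males gives no value for comparisons averaged over sex that use vehicle. The stricter filter (mean of at least 100) leaves out Slc5a11, whose depth of about 14 reads limits it.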
